A study of Mus musculus with 12 samples.

Results

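The angiopoietin and Tie system comprises here 5 of the 38127 genes counted: the receptor genes *Tek* (which encodes Tie2) and *Tie1*, the ligand genes *Angpt1* and *Angpt2*, and *Ptprb*, which encodes the endothelial phosphatase VE-PTP. The members were chosen by name from what is known of the pathway, not by their values, although earlier results of these data were known. RNA from sorted cells of C57BL/6 mouse fetal liver (FL) was sequenced in bulk, with 3 libraries for each of 4 populations, all depleted of Ter119+ erythroid and CD45+ hematopoietic cells. At embryonic day (E) 14.5 these were P2 cells (CD54-CD31-Kit+CD24+), CD54+CD31- cells, which the study calls CD324+ cells, and CD54+CD31+ cells, called CD31+ cells here. At E18.5 CD54+CD31- cells were sorted once more. Total counts ranged from 40714017 to 64368883 per library, and 4 of the 5 members had counts in every library, while *Angpt2* had 0 counts in all 12.

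Tie2 and Tie1 are receptor tyrosine kinases of endothelial cells. Angiopoietin-1, which is secreted mainly by perivascular and other stromal cells and by megakaryocytes, activates Tie2, and angiopoietin-2, which endothelial cells themselves store and release, can oppose or replace it depending on the setting. Tie1 binds neither ligand well and works in a complex with Tie2, and VE-PTP removes phosphate from Tie2 and from the junction protein VE-cadherin. In the liver, sinusoidal and portal endothelial cells carry these receptors, and stellate cells and other mesenchymal cells lie beside them.

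Markers of the sorted populations followed the labels at E14.5. CD31 was itself a sorting antigen, so the level of its gene *Pecam1*, 591 ± 51.5 CPM in CD31+ cells (SD, n = 3 libraries) against 6.08 ± 1.70 CPM in E14.5 CD54+CD31- cells (SD, n = 3), only shows that the gate held. *Kit* reached 323 ± 32.0 CPM in P2 cells (SD, n = 3). Here CPM is the count of a gene scaled by the total count of its library, after TMM normalization of the library sizes. The sum of 12 endothelial marker genes lay between 3922 and 4400 CPM in CD31+ cells, between 18.6 and 26.2 CPM in E14.5 CD54+CD31- cells, between 106 and 135 CPM in E18.5 CD54+CD31- cells, and at 49.7, 219, and 70.6 CPM in P2 replicates 1, 2, and 3, so that P2 replicate 2 stood apart. None of these 12 markers was at 0 throughout a population, but 5 of them were below 1 CPM in all 3 libraries of E14.5 CD54+CD31- cells. *Eng*, 1 of the 12, was alone between 29.0 and 68.9 CPM in the P2 libraries. The E18.5 libraries went partly against their liver label. The sum of 10 lung epithelium markers was between 8432 and 19312 CPM there and at most 19.8 CPM in the E14.5 libraries, and the sum of 10 hepatoblast markers was 5943 CPM in E18.5 replicate 1 but 36146 and 46473 CPM in replicates 2 and 3.

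*Angpt2* could not be measured in these files. Its gene body on chromosome 8, from 18690263 to 18741562 on the minus strand (GRCm38), lies wholly inside the body of *Mcph1*, from 18595131 to 18803189 on the plus strand, although the exons of *Angpt2* share 0 bases with the exons of any other gene. Of the 372 protein coding genes that lie inside a gene on the opposite strand and share no exon base with it or another gene, 368 were at 0 counts in all 12 libraries (98.92%), and of the 161 inside a gene on the same strand 160 were (99.38%). Of the 16051 protein coding genes with no shared exon base that lie inside no other gene, 2221 were at 0 (13.84%). A count of 0 for *Angpt2* therefore says nothing about whether the gene was transcribed in any of the 4 populations, and no bound was placed on it. The same held for *Angptl1*, *Angptl2*, *Angptl7*, and *Angptl8*, which are nested on the opposite strand of another gene and at 0 counts throughout.

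**Figure D1:**
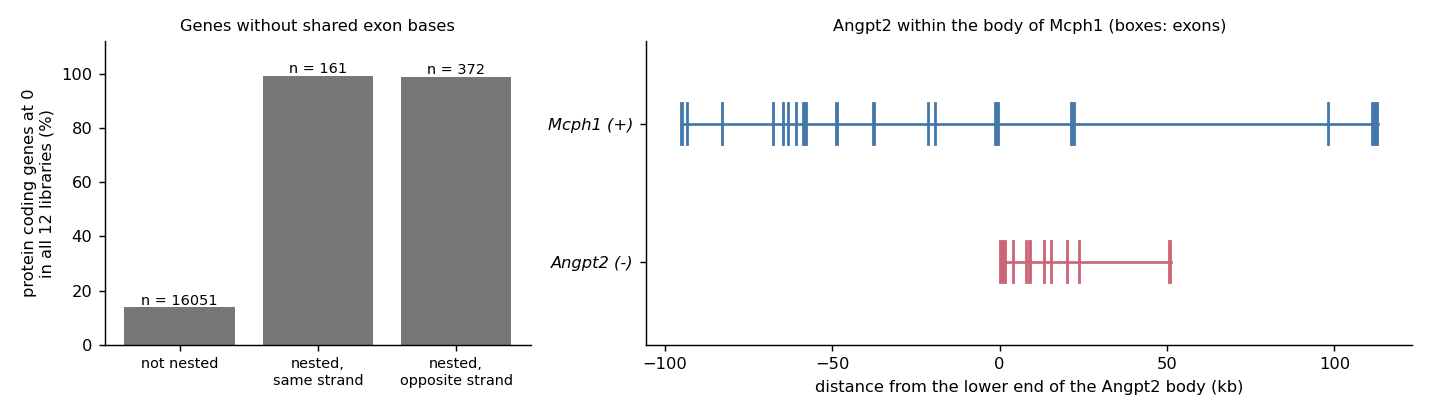
Left, share of protein coding genes without shared exon bases that were at 0 counts in all 12 libraries, by position relative to other genes (bars, percent of the n genes named above each bar). Right, the bodies (lines) and exons (boxes) of *Mcph1* and *Angpt2* by distance in kilobases from the lower end of the *Angpt2* body. Nested genes were at 0 in 98.92% (opposite strand) and 99.38% (same strand) of cases against 13.84% of genes that were not nested, and *Angpt2* lies within *Mcph1*.

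The bodies of the other 4 members overlap no other gene. On GRCm38 *Tek* lies on chromosome 4 from 94739289 to 94874976 (plus strand), *Tie1* on chromosome 4 from 118471191 to 118490061 (minus strand), *Ptprb* on chromosome 10 from 116275523 to 116389535 (plus strand), and *Angpt1* on chromosome 15 from 42424723 to 42676977 (minus strand). Of their exon lengths, that of *Ptprb* is the longest at 13.33 kb, and those of *Tek*, *Tie1*, and *Angpt1* are 4.712, 4.917, and 5.205 kb. Their bodies differ more, from 18.87 kb for *Tie1* to 252.3 kb for *Angpt1*.

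The sequence in front of *Tek* is shown because both receptor genes were far higher in CD31+ cells than in the other populations. In addition, ETS factors, which bind the core GGAA, have been studied at the promoters of these genes. The 250 bases before the *Tek* start in RefSeq (chr4:94739039-94739288, plus strand, GRCm38.p6) read as follows, with each GGAA, here only as its reverse complement TTCC, in capitals.
Tek: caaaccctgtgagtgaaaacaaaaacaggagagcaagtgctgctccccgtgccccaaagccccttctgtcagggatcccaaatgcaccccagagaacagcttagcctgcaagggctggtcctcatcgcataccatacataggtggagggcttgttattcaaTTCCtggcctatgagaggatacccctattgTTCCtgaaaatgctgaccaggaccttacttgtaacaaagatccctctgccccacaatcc
The window held 2 matches to GGAA on either strand, and 76.8% of the 32851 RefSeq promoter windows of this length held at least as many. The window of *Tie1* (chr4:118489850-118490099, minus strand) held 7, which 3.82% of windows reached or passed. It is not printed because 212 of its 250 bases lie within the first exon of the GENCODE transcript, which starts upstream of the RefSeq start. Neither window held GATAA, a core of GATA factor sites, on either strand, and 22.6% of all windows did. TATAA, the core of the TATA box, was likewise in neither, and 22.8% of all windows held it. GGAA overlaps neither of the other motifs in these windows, and a match is a run of letters and not a binding site.

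The 3 genes *Tek*, *Tie1*, and *Ptprb* were highest in CD31+ cells by a wide margin, and *Angpt1* was highest there too, by much less. *Tek* was at 763, 674, and 546 CPM in replicates 1, 2, and 3 of CD31+ cells, at 1.84, 3.15, and 3.31 CPM in E14.5 CD54+CD31- cells, at 4.20, 27.3, and 6.74 CPM in P2 cells, and at 18.8, 17.7, and 16.6 CPM in E18.5 CD54+CD31- cells. All CD31+ libraries were far above the others, no P2 library was as low as the highest E14.5 CD54+CD31- library, and the P2 and E18.5 libraries overlapped. The lowest of these values rested on 65 counts, and the limit that a count of 0 allows was at most 0.0737 CPM before normalization.

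*Tie1* was at 423, 435, and 415 CPM in CD31+ cells, at 1.36, 2.71, and 2.10 CPM in E14.5 CD54+CD31- cells, at 2.76, 20.0, and 3.93 CPM in P2 cells, and at 7.97, 8.06, and 6.65 CPM in E18.5 CD54+CD31- cells. *Ptprb* was at 783, 789, and 759 CPM in CD31+ cells, at 2.29, 2.17, and 3.50 CPM in E14.5 CD54+CD31- cells, at 4.09, 29.4, and 7.55 CPM in P2 cells, and at 27.4, 31.6, and 24.7 CPM in E18.5 CD54+CD31- cells. As for *Tek*, P2 replicate 2 was several times above the other P2 libraries. Within CD31+ cells the coefficient of variation was 2.47% for *Tie1* and 2.04% for *Ptprb* but 16.5% for *Tek*.

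*Angpt1*, the only ligand among the members that could be read, was at 18.3, 20.4, and 25.6 CPM in CD31+ cells, at 2.09, 4.19, and 2.81 CPM in E14.5 CD54+CD31- cells, at 2.64, 4.60, and 2.66 CPM in P2 cells, and at 5.09, 5.73, and 5.86 CPM in E18.5 CD54+CD31- cells. The P2 and E14.5 CD54+CD31- libraries overlapped throughout, the E18.5 libraries lay just above both, and the CD31+ libraries lay above all others.

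**Figure D2:**
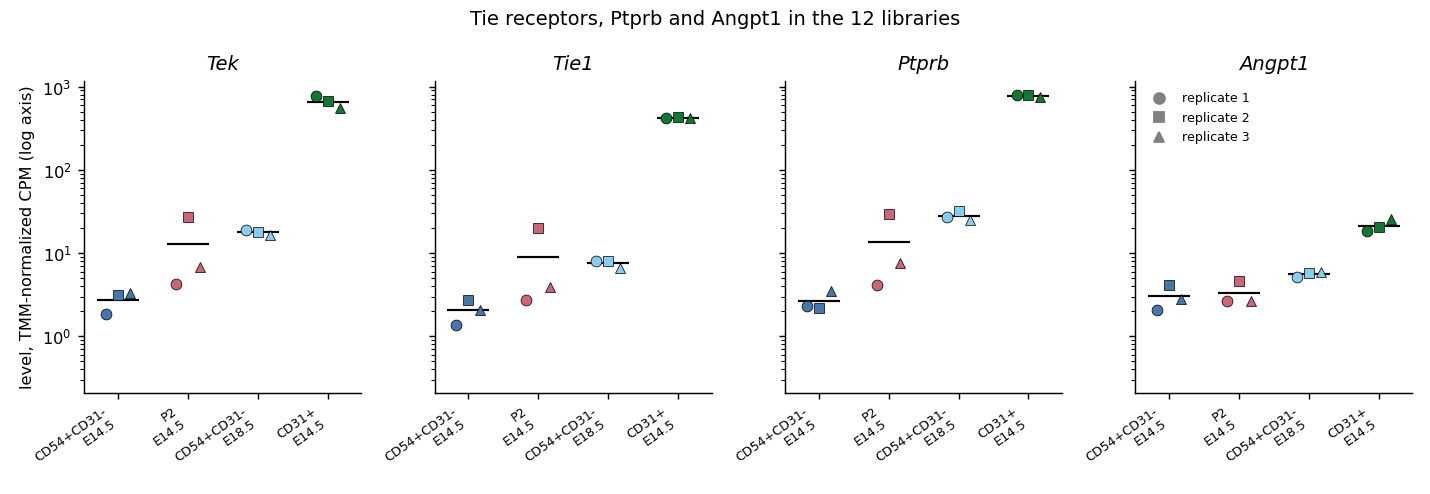
Level of each measurable member in TMM-normalized CPM (log axis) by population. Points are single libraries, with the symbol giving the replicate number, and bars are means of 3 libraries. CD31+ cells hold between 415 and 789 CPM of *Tek*, *Tie1*, and *Ptprb*, and P2 replicate 2 lies above P2 replicates 1 and 3 for these genes.

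By mean level, *Tek*, *Ptprb*, and *Angpt1* had the same order: CD31+ cells, E18.5 CD54+CD31- cells, P2 cells, and E14.5 CD54+CD31- cells. For *Angpt1* the last 2 overlapped, and their order turned with the authors' library factors, at 2.63 CPM in P2 cells and 2.89 CPM in E14.5 CD54+CD31- cells. For *Tie1* the mean of P2 cells, 8.90 ± 9.65 CPM (SD, n = 3), exceeded that of E18.5 CD54+CD31- cells, 7.56 ± 0.792 CPM (SD, n = 3), but the 2 populations overlapped, and without P2 replicate 2 all P2 libraries were below the E18.5 libraries.

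Between genes, levels were compared per length. Per kilobase of exon, CD31+ cells had 140 ± 23.1 CPM of *Tek*, 86.3 ± 2.13 CPM of *Tie1*, 58.3 ± 1.19 CPM of *Ptprb*, and 4.12 ± 0.717 CPM of *Angpt1* (SD, n = 3 each). Per kilobase of gene body, the order of the first 3 changed, with 22.5 ± 0.555 CPM of *Tie1*, 6.81 ± 0.139 CPM of *Ptprb*, and 4.87 ± 0.803 CPM of *Tek* (SD, n = 3 each), so that no order among these 3 genes was drawn. *Angpt1* was the lowest on both scales, with 0.0849 ± 0.0148 CPM per kilobase of body (SD, n = 3).

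CD31+ cells were compared with CD54+CD31- cells at E14.5 to set the endothelial fraction against the hepatoblast fraction. All 4 measurable members were higher in CD31+ cells. The log2 fold change was 7.89 (SE 0.73, adjusted p = 5.03e-06) for *Tek*, 7.69 (SE 0.77, adjusted p = 9.03e-06) for *Tie1*, and 8.17 (SE 0.74, adjusted p = 4.35e-06) for *Ptprb*, in the quasi-likelihood test of edgeR, adjusted by Benjamini-Hochberg over 15461 genes. *Angpt1* was higher by 2.82 (SE 0.29, adjusted p = 1.23e-05, edgeR). Of all genes tested, 31.7% were called higher and 34.0% lower in CD31+ cells, and the median log2 fold change of all genes was -0.03. By signed log2 fold change *Ptprb* ranked 32nd, *Tek* 54th, and *Tie1* 67th of the 15461 genes, and *Angpt1* 1292nd. All 3 CD31+ libraries were above all 3 CD54+CD31- libraries for each of the 4 genes. How many of the 15461 genes were separated in this way was not counted, so this does not set the members apart.

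Other cell types' markers moved in this comparison as well. The 12 endothelial markers were all called higher in CD31+ cells (median log2 fold change 7.98), as were the 10 sinusoidal endothelial markers (median 5.36), whose sum was between 7155 and 7262 CPM there and between 96.8 and 103 CPM in CD54+CD31- cells. The 10 megakaryocyte markers were also all called higher, and their sum was between 543 and 873 CPM in CD31+ cells and between 61.4 and 75.9 CPM in CD54+CD31- cells, with 0 of the 10 at 0. On average *Vwf* made up 210 CPM of the sum of 706 CPM in CD31+ cells. Markers of stellate and mesenchymal cells fell in CD31+ cells for 11 of 12 tested, with sums between 96.0 and 110 CPM against 1138 to 1214 CPM, and 2 of the 14 listed were at 0. *Reln*, which encodes the secreted protein reelin, made up 1025 CPM of the sum in CD54+CD31- cells on average, and the other 13 markers summed to between 57.1 and 78.5 CPM in CD31+ cells and between 113 and 207 CPM in CD54+CD31- cells. The sum of 10 macrophage markers was between 1352 and 1605 CPM in CD31+ cells and between 142 and 247 CPM in CD54+CD31- cells, but *Mrc1*, a scavenger receptor gene that sinusoidal endothelial cells also express, made up 1416 CPM of it on average, and of the 9 macrophage markers tested 7 were lower and 1, *Mrc1*, was higher. *Mrc1* and *Reln* are named here after their values were seen. The calls of *Col1a1* among the stellate markers and *Marco* among the macrophage markers were lost with the authors' library factors. Within CD31+ replicates 1, 2, and 3, megakaryocyte markers summed to 543, 873, and 703 CPM, while *Angpt1* was at 18.3, 20.4, and 25.6 CPM. The part of these cell types in the level of *Angpt1* was not tested. In bulk libraries, fewer cells that carry a transcript and less of it per cell cannot be told apart.

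P2 cells were compared with CD54+CD31- cells at E14.5, 2 of the populations that the study set side by side. *Tek*, *Tie1*, and *Ptprb* were called higher in P2 cells and *Angpt1* was not called. The log2 fold change was 2.19 (SE 0.61, adjusted p = 0.00827) for *Tek*, 2.10 (SE 0.66, adjusted p = 0.0157) for *Tie1*, and 2.34 (SE 0.61, adjusted p = 0.00593) for *Ptprb* in edgeR's test. That of *Angpt1* was 0.11 (SE 0.29, adjusted p = 0.751, edgeR). The background was 33.8% of genes called higher and 36.1% called lower. The size of these differences rested on P2 replicate 2. Without it the log2 fold changes were 0.98 for *Tek* (adjusted p = 0.00574), 0.71 for *Tie1* (adjusted p = 0.0175), and 1.12 for *Ptprb* (adjusted p = 0.00195, all edgeR), and without replicate 1 of the CD54+CD31- cells *Tie1* was not called (adjusted p = 0.0562).

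In this comparison the 12 endothelial markers moved with the receptors, and the sinusoidal endothelial markers as a list did not. Of the 12 endothelial markers 11 were called higher in P2 cells (median log2 fold change 2.42), and 10 without P2 replicate 2 (median 1.24). Of the 10 sinusoidal markers 4 were called higher and 1 lower (median -0.35), and without P2 replicate 2 the counts were 3 and 4 (median -1.43). The call of *Bmp2*, 1 of the 4, was lost with the authors' library factors (log2 fold change 1.53, adjusted p = 0.0881, edgeR). In P2 replicate 2 the megakaryocyte marker sum was also higher, at 143 CPM, than in the other P2 libraries, where it was at most 69.1 CPM. On average over the P2 libraries *Vwf* made up 26.6 CPM of a sum of 92.9 CPM. The macrophage sum was 62.7 CPM in P2 replicate 2 and at most 23.0 CPM in the others, but *Mrc1* made up most of it there, and the other 9 macrophage markers summed to 6.25, 8.74, and 7.59 CPM in replicates 1, 2, and 3. The sum of 10 erythroid progenitor markers was 3674 CPM in P2 replicate 2 against 3941 and 3720 CPM in the others. Their part in the difference was not tested.

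P2 cells against CD31+ cells gave the reverse picture, with all 4 members lower in P2 cells. The log2 fold change was -5.71 (SE 0.65) for *Tek*, -5.58 (SE 0.68) for *Tie1*, -5.84 (SE 0.66) for *Ptprb*, and -2.71 (SE 0.29) for *Angpt1*, with adjusted p values between 1.11e-05 and 3.09e-05 in edgeR's test. Among all genes 34.3% were called higher and 39.4% lower in P2 cells, and the median over all genes was -0.13. Without P2 replicate 2 the differences widened to -6.91, -6.98, -7.06, and -3.02. Endothelial markers were lower in P2 cells for 12 of 12 (median -5.53, and -6.75 without P2 replicate 2), sinusoidal markers for 10 of 10 (median -5.70), and megakaryocyte markers for 10 of 10 (median -2.75), and their part in the members' differences was not tested. The 3 comparisons at E14.5 share libraries, so their values are given side by side and were not set against each other.

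E18.5 CD54+CD31- cells were compared with E14.5 cells of the same gate, a contrast of age that the study did not report. All 4 measurable members were higher at E18.5. The log2 fold change was 3.57 (SE 0.22, adjusted p = 3.03e-05) for *Ptprb*, 2.87 (SE 0.23, adjusted p = 6.96e-05) for *Tek*, 2.07 (SE 0.26, adjusted p = 0.000471) for *Tie1*, and 1.07 (SE 0.26, adjusted p = 0.00906) for *Angpt1* in edgeR's test over 15863 genes. The background was 35.9% of genes called higher and 33.5% lower, with a median of 0.03. Without E18.5 replicate 1, whose liver markers were lowest, the values were 3.56, 2.80, 2.01, and 1.11, and all 4 genes were still called. Levels stayed well below those of E14.5 CD31+ cells: the E18.5 mean was 2.68% of the CD31+ mean for *Tek*, 1.78% for *Tie1*, 3.59% for *Ptprb*, and 26.0% for *Angpt1*.

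Several cell types' markers were higher at E18.5 too. All 12 endothelial markers were called higher (median log2 fold change 2.61), as were 8 of 9 sinusoidal markers tested (median 2.15), 9 of 10 lung epithelium markers (median 11.06), all 9 lung mesenchyme markers tested (median 5.61), all 9 heart muscle markers tested (median 5.48), and 11 of 12 stellate and mesenchymal markers tested (median 2.80). The stellate and mesenchymal sum was between 3545 and 3682 CPM at E18.5, with 1 of 14 markers at 0, and between 1138 and 1214 CPM at E14.5. *Reln* went against the rest of that list, from 1025 to 198 CPM (log2 fold change -2.20), and the other 13 markers summed to between 3260 and 3594 CPM at E18.5 against 113 to 207 CPM at E14.5. The lung mesenchyme sum was between 489 and 811 CPM against at most 12.5 CPM. Whether the members' transcripts at E18.5 came from liver or from another organ cannot be told apart in these libraries.

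**Figure D3:**
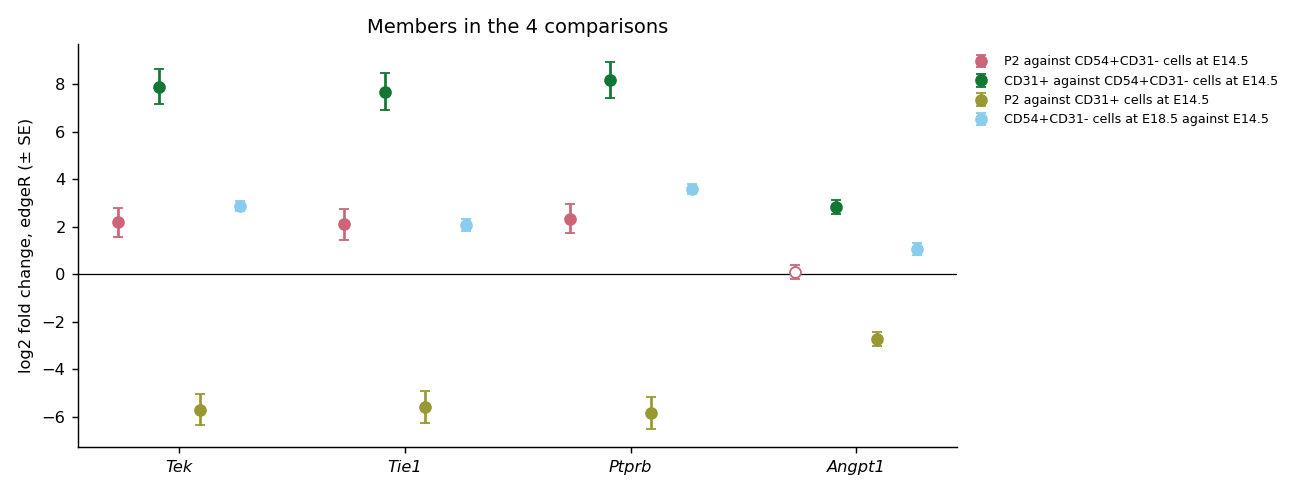
Log2 fold change of each measurable member in the 4 comparisons (points, with bars of 1 SE from edgeR). Filled points had an adjusted p below 0.05, and the open point, *Angpt1* in P2 against CD54+CD31- cells (0.11), did not. *Tek*, *Tie1*, and *Ptprb* lie close together in every comparison at E14.5, and *Angpt1* is nearer to 0.

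Over the 12 libraries *Tek*, *Tie1*, and *Ptprb* followed the endothelial marker sum more closely than *Angpt1* did. *Tek* was 15.8% of that sum in CD31+ cells, 11.6% in E14.5 CD54+CD31- cells, 10.2% in P2 cells, and 14.2% in E18.5 CD54+CD31- cells, while the marker sum itself spanned from 18.6 to 4400 CPM. *Tie1* was between 6.05% and 10.2% of the sum by population mean, and *Ptprb* between 10.8% and 22.3%. *Angpt1* was 0.518% of the sum in CD31+ cells but 3.73% in P2 cells, 4.51% in E18.5 CD54+CD31- cells, and 12.7% in E14.5 CD54+CD31- cells. These shares describe the libraries and were not tested, and the points share the gate and normalization of their population. *Eng*, named here after its values were seen, made up 43.7 of 113 CPM of the mean marker sum in P2 cells. It made up 840 of 4168 CPM in CD31+ cells, 7.33 of 23.5 CPM in E14.5 CD54+CD31- cells, and 29.5 of 125 CPM at E18.5. The P2 shares thus rest more on this 1 marker than those of the other populations.

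**Figure D4:**
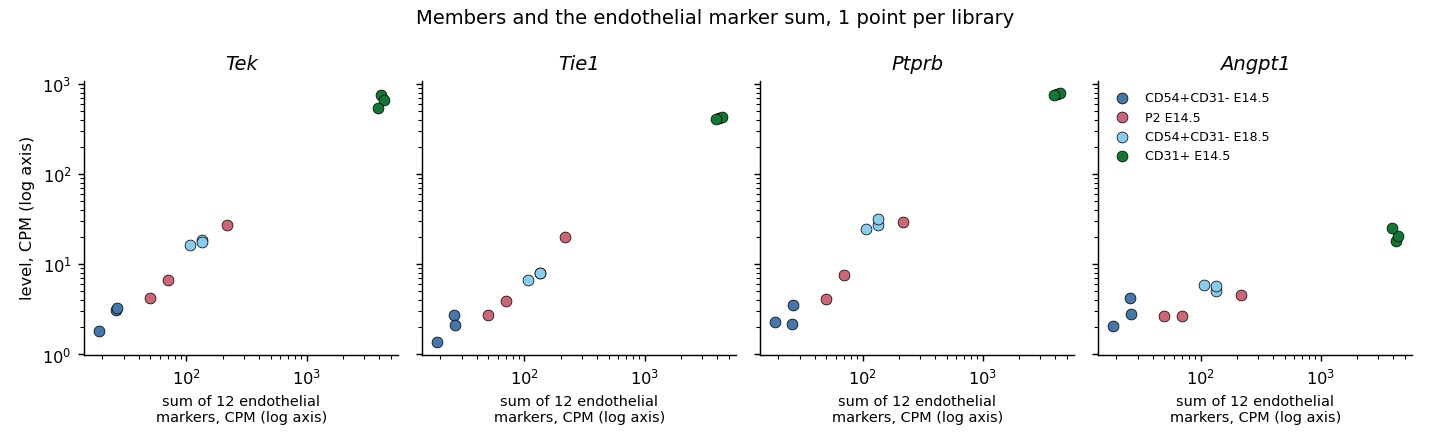
Level of each measurable member against the summed level of 12 endothelial markers, both in CPM on log axes, with 1 point per library colored by population. P2 replicate 2, the P2 point at 219 CPM on the horizontal axis, has the highest *Tek*, *Tie1*, and *Ptprb* of the P2 libraries. *Angpt1* spans only from 2.09 to 25.6 CPM over the same libraries.

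The genes with the pattern most like each member were found as the smallest root mean square difference of centered log2(CPM + 0.5) over the 12 libraries, among 13212 genes with a mean of at least 1 CPM. For *Tek* the nearest genes were *Flt4* (0.19), *Cd93* (0.22), *Arhgef15* (0.23), *Fabp4* (0.24), and *Pcdh17* (0.26). *Flt4* encodes the receptor VEGFR3 and *Cd93* an endothelial membrane glycoprotein. For *Tie1* they were *Arhgef15* (0.16), *Robo4* (0.21), *Pcdh12* (0.21), *Mmrn2* (0.23), and *Ushbp1* (0.25), and for *Ptprb* they were *Pcdh17* (0.24), *Flt1* (0.27), *Fabp4* (0.28), *Flt4* (0.31), and *Tek* (0.32). *Ptprb* was the 11th nearest gene to *Tek* (0.32), and *Tie1* the 12th (0.33). *Tie1* and *Ptprb* lay further apart (0.60), with *Ptprb* at rank 55 from *Tie1* and *Tie1* at rank 23 from *Ptprb*. For *Angpt1* the nearest were *Sp110* (0.22), *Fam217b* (0.25), *Zkscan2* (0.26), *Gabrb2* (0.27), and *Irak3* (0.27), and *Zkscan2* and *Gabrb2* were below 1 CPM on average in every population but CD31+ cells. *Tek* stood at rank 11021 from *Angpt1*, whereas *Angpt1* stood at rank 578 from *Tek*, 546 from *Tie1*, and 622 from *Ptprb*. The measure is not scaled to the range of a gene. A gene of wide range such as *Tek* therefore lies far from a gene of narrow range even where both are highest in the same population.

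Transcript ratios between members were compared per kilobase of exon, as the log2 of (CPM + 0.1). The ratio of *Tek* to *Tie1* was 1.39 in E14.5 CD54+CD31- cells, 1.58 in P2 cells, and 1.61 in CD31+ cells (geometric means of 3 libraries). The libraries of the 3 populations overlapped, with log2 ratios of 0.48 ± 0.21, 0.66 ± 0.16, and 0.69 ± 0.23 (SD, n = 3 each), and the difference was not called (exact permutation test over 1680 assignments, p = 0.468, adjusted p = 0.561 over 3 ratios). The ratio of *Ptprb* to *Tek* was 0.343, 0.373, and 0.419 in the same order (exact permutation p = 0.561, adjusted p = 0.561). Per kilobase of gene body, *Tek* over *Tie1* was instead 0.186, 0.211, and 0.215, and *Ptprb* over *Tek* was 1.15, 1.26, and 1.41. The choice of length moves a ratio by the same factor in every library. The ratios therefore compare populations and do not tell which gene of a pair was higher. A p above the threshold does not show that the ratios were equal: the population means spread over 0.21 and 0.29 on the log2 scale.

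The ratio of *Angpt1* to *Tek* took the place of that of *Angpt2* to *Angpt1* and was chosen after the values had been seen. It was 0.982 in E14.5 CD54+CD31- cells, between 0.774 and 1.19 by library, 0.320 in P2 cells, between 0.155 and 0.577, and 0.0295 in CD31+ cells, between 0.0218 and 0.0425. Per kilobase of gene body it was 0.584, 0.190, and 0.0175 in the same order. The 3 populations did not overlap (exact permutation p = 0.00357, which is the smallest that 9 libraries allow, adjusted p = 0.0107). Because the levels of both genes were known when this ratio was chosen, the p describes the separation and is not evidence for it.

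Between ages, the CD54+CD31- libraries did not overlap for any of the 3 ratios. *Tek* over *Tie1* was 2.43 at E18.5, between 2.27 and 2.58, *Ptprb* over *Tek* was 0.554, between 0.513 and 0.630, and *Angpt1* over *Tek* was 0.288, between 0.248 and 0.323. The log2 differences from E14.5 were 0.80, 0.69, and -1.77. Per kilobase of gene body the E18.5 ratios were 0.324, 1.86, and 0.171, with the same differences from E14.5. With 3 libraries against 3 the exact permutation test cannot give less than p = 0.1, which each ratio reached.

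**Figure D5:**
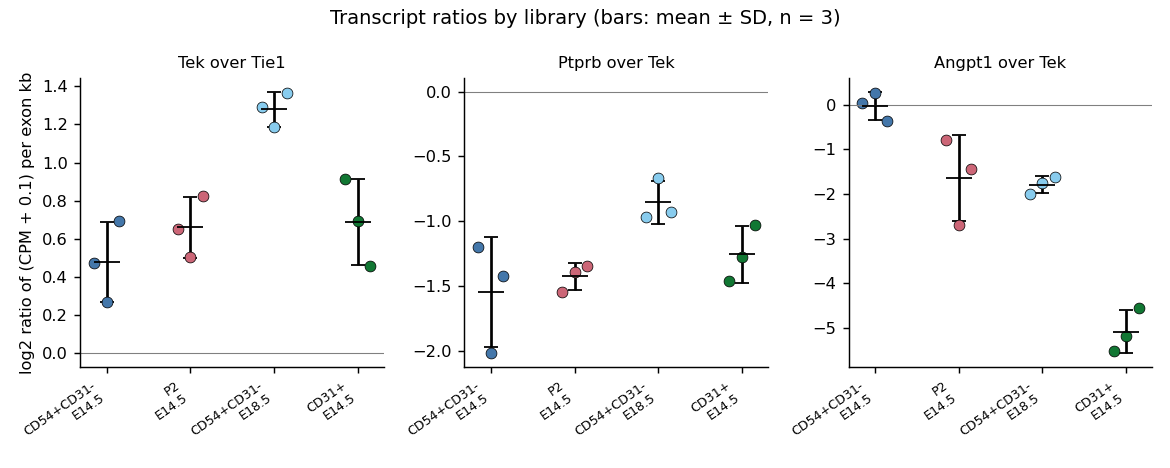
Log2 transcript ratio per kilobase of exon for 3 pairs of members (points, single libraries; bars, mean ± SD, n = 3) in the 4 populations. *Tek* over *Tie1* and *Ptprb* over *Tek* overlap among the E14.5 populations and are higher in all E18.5 libraries than in the E14.5 CD54+CD31- libraries, and *Angpt1* over *Tek* falls from near 0 in E14.5 CD54+CD31- cells to about -5.08 in CD31+ cells.

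Other ligands and partners of the pathway moved in both directions. *Angpt4*, the third mouse ligand of Tie2, was low everywhere, with 1.24 ± 0.113 CPM in E14.5 CD54+CD31- cells, 1.53 ± 0.471 CPM in E18.5 CD54+CD31- cells, 0.603 ± 0.289 CPM in CD31+ cells, and 0.368 ± 0.214 CPM in P2 cells (SD, n = 3 each). Of the 7 genes for other ligands, the ligand-binding protein *Svep1*, and integrins that angiopoietins can bind, 3 were called higher and 3 lower in CD31+ than in E14.5 CD54+CD31- cells, with the integrin *Itgb3* higher by 2.78 and *Itgb5* lower at -3.28 on the log2 scale. At E18.5 3 were higher and 2 lower, and *Svep1* rose most, from 2.40 to 30.1 CPM (log2 fold change 3.83, SE 0.17, adjusted p = 1.57e-05, edgeR). In P2 against CD54+CD31- cells 5 of the 7 were lower and 0 higher, against 6 lower without P2 replicate 2. For this list and those below, 31.7% of all genes were called higher and 34% lower in CD31+ than in CD54+CD31- cells. The shares were 33.8% and 36.1% in P2 against CD54+CD31- cells and 34.3% and 39.4% in P2 against CD31+ cells. At E18.5 against E14.5 they were 35.9% and 33.5%. Of the angiopoietin-like genes, *Angptl4* and *Angptl6* could be read. *Angptl4*, a secreted inhibitor of lipoprotein lipase, was at 24.7 ± 2.25 CPM in E14.5 CD54+CD31- cells and 24.4 ± 1.56 CPM in P2 cells but 4.45 ± 0.219 CPM in CD31+ cells (SD, n = 3 each).

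VE-PTP substrates and junction partners include the receptor and adhesion genes on which the phosphatase acts. Of the 8 genes 6 were higher and 0 lower in CD31+ than in E14.5 CD54+CD31- cells, at a median of 3.62, and P2 cells had lower levels than CD31+ cells for all 8 (median -5.24). *Kdr*, which encodes VEGFR2, rose by 8.21 (SE 0.76, adjusted p = 4.99e-06, edgeR) in the first of these, from 6.87 to 2051 CPM, and *Fgd5*, an endothelial exchange factor, by 6.93. *Cdh5*, which encodes VE-cadherin and is named here for its role with VE-PTP, outside the rule for naming genes, was at 1644 ± 62.0 CPM in CD31+ cells and 18.6 ± 6.75 CPM in E14.5 CD54+CD31- cells (SD, n = 3 each). In P2 against CD54+CD31- cells 1 of the 8, *Kdr*, was higher and 4 were lower, among them the junction genes *Jup* (-4.07) and *Cgnl1* (-4.39). At E18.5 7 of 8 were higher than at E14.5, with *Kdr* at 3.18 and *Fgd5* at 2.03 on the log2 scale.

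Genes of Tie2 signaling were not uniformly raised where the receptor was high. Of 20 adaptor and kinase genes, 12 were higher and 7 lower in CD31+ than in E14.5 CD54+CD31- cells, with a median of 0.41 beside -0.03 for all genes. *Ptk2*, which encodes focal adhesion kinase, rose by 1.91, whereas the adaptor genes *Grb7* and *Grb14* changed by -6.17 and -3.54. Among the E14.5 populations both adaptors were highest in CD54+CD31- cells, *Grb7* at 131 CPM and *Grb14* at 56.5 CPM. In P2 against CD54+CD31- cells 6 were higher and 8 lower, and at E18.5 against E14.5 8 were higher and 6 lower, with *Src*, which encodes a tyrosine kinase, at 1.83. Of all genes, 33.8% were called higher and 36.1% lower in the first comparison, and 35.9% and 33.5% in the second. The counts of the list lie near those shares and set it apart in neither comparison. For *Akt2*, *Pik3r1*, and *Ptpn11* the call in P2 against CD54+CD31- cells was lost with the authors' library factors, as were those of *Shc1* and *Pik3cb* in CD31+ cells and of *Crk*, *Shc1*, and *Ptpn11* at E18.5.

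Among 8 effectors downstream of Akt, *Nos3*, which encodes endothelial nitric oxide synthase, had the largest difference, at 16.7 CPM in CD31+ cells and 0.134 CPM in E14.5 CD54+CD31- cells (log2 fold change 6.96, SE 0.61, adjusted p = 3.35e-06, edgeR), although 90.1% of its body is shared with other genes and only part of it could be counted. *Foxo1*, a transcription factor that Akt inhibits, was higher by 1.84. At E18.5 *Foxo3* was higher by 2.35 and *Birc5*, which encodes survivin, was lower at -3.08. Of the list, 4 genes were higher and 1 lower in CD31+ than in CD54+CD31- cells, 4 and 2 in P2 against CD54+CD31- cells, and 5 and 2 at E18.5 against E14.5. The shares of all genes were 31.7% and 34%, 33.8% and 36.1%, and 35.9% and 33.5% in the same order. Whether the list departs from these shares was not tested. With the authors' library factors the calls of *Foxo4* and *Birc5* in P2 cells and of *Bad* at E18.5 were lost.

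Of the proteases that shed Tie receptors and their inhibitors, 4 of 6 could be read, since *Timp1* and *Timp3* are nested in other genes and at 0 counts. *Mmp14*, a membrane-bound metalloprotease, was at 485 CPM in CD31+ cells, 198 CPM in E14.5 CD54+CD31- cells, and 19.3 CPM in P2 cells. *Timp2* was higher at E18.5, at 127 CPM against 6.64 CPM (log2 fold change 4.44).

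Factors studied at the promoters of the Tie genes were mostly higher in CD31+ cells. Of the 12 listed, 10 were tested, *Foxc2* being nested in another gene and *Etv2* too low. In CD31+ against E14.5 CD54+CD31- cells 9 were higher and 0 lower, with a median of 2.20, and the largest were the ETS genes *Erg* (7.46, SE 0.64, adjusted p = 2.60e-06, edgeR) and *Ets1* (6.23, SE 0.63, adjusted p = 9.49e-06, edgeR). In P2 against CD54+CD31- cells 5 were higher, among them the hematopoietic factors *Gata2* (2.92) and *Tal1* (2.60), and 3 were lower, among them *Gata3* (-5.21) and *Epas1* (-3.30), against 4 and 4 without P2 replicate 2. At E18.5 5 were higher, with *Erg* at 2.65 and *Ets1* at 2.48, and 2 were lower, *Gata3* at -2.66 and *Tal1* at -1.90. The levels of these genes were not tested for a relation to those of *Tek* or *Tie1*.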

How the data were processed

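RNA-seq libraries of 4 sorted populations, 3 samples each, were analyzed. As deposited, each file holds the raw count of reads per gene, made by the authors with STAR 2.5.0a on GRCm38 and featureCounts 1.4.6-p3, beside a normalized score, in which the authors scaled every count of a library by the same DESeq2 factor and which served here only to read that factor. The feature type and strand setting of the counting are not given in the sources used here. Counts were tested with edgeR 4.0.16 (TMM, filterByExpr, quasi-likelihood test, Benjamini-Hochberg over all genes, adjusted p below 0.05) in R 4.3.3. One fit held all 9 libraries of E14.5 and another the 6 of CD54+CD31- cells, with population or age as the only factor. Levels are CPM with TMM factors over the 12 libraries. Positions and lengths came from GENCODE M21, which held 37932 of the 38127 identifiers. Ratios used a pseudocount of 0.1 CPM.

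The depth was between 40714017 and 64368883 counts per library, and replicate libraries differed by more than sampling noise (chi-square over its degrees of freedom, 38.6 or more). The study states 3 independent litters, while the sample labels give only replicate numbers, so p-values measure the spread between these samples. The limit of 3 counts, the floor that a count of 0 allows, covers counting error only. The tests were tried on simulated data.

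The members and gene lists were chosen with earlier results of these data known. Genes named from a list were the 2 largest rises and 2 largest falls per comparison among genes called and without overlap between libraries, with further genes named as exceptions where a count is broken down. Some genes that this rule selects are not reported here. Alternatives were size factors from DESeq2 1.42.0 in edgeR, DESeq2 itself, the authors' factors, testing without a count filter or with at least 10 counts per library, a replicate block, other sets of libraries in the fit, genes over 1% of a library left out, and leave-one-out fits over single libraries. The ratio of *Angpt1* to *Tek* and levels per kilobase of gene body were added after the data were seen.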

Additional observations from a re-analysis of the deposited data

How the results depend on the processing

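Genes called per comparison stayed within 1.5 times the reported count under every alternative run. The members called changed only in P2 against CD54+CD31- cells, from 3 to 2, where *Tie1* lost its call without E14.5 CD54+CD31- replicate 1, at a log2 fold change of 1.89. *Tie1* ranged from 0.71 to 2.51 with single libraries left out. *Angpt1* in that comparison, not called under any alternative, turned to -0.13 with the authors' library factors, and ranged from -0.20 to 0.39 with single libraries left out, so that it has no direction. The cause was not tested. The authors' factors moved the median log2 fold change of all genes by -0.26 in P2 against CD54+CD31- cells, -0.37 in P2 against CD31+ cells, 0.11 in CD31+ against CD54+CD31- cells, and 0.23 between ages. In the first 2 of these comparisons, 38.2% and 33.9% of the called genes were then higher in P2 cells, against 48.3% and 46.6% as reported. Of 516 calls of members and listed genes over the 4 comparisons, 23 were lost with those factors, none of them a member, 2 with DESeq2's size factors, and 1 with genes over 1% of a library left out. The planned ratio of *Angpt2* to *Angpt1* was not run.

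Levels in CPM moved beyond the spread between replicates where that spread was small. With raw library totals and with the authors' factors, E18.5 levels were 20.9 and 22.8 CPM for *Tek*, 8.95 and 9.71 CPM for *Tie1*, 33.0 and 35.8 CPM for *Ptprb*, and 6.56 and 7.13 CPM for *Angpt1*. In CD31+ cells they were 464 and 436 CPM for *Tie1* and 850 and 799 CPM for *Ptprb*.

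Deviations from the population means correlated between 0.020 and 0.209 across genes for same-numbered libraries of different populations, over 0.1 in 4 of 12 pairs, and between -0.187 and 0.074 for other numbers, over 0.1 in 0 of 24. Since pairing was taken as shown only where every same-numbered pair was over 0.1, the samples were not treated as paired. The same-numbered pairs between ages, which cannot come from 1 litter, were at 0.081, 0.027, and 0.046. All 4 pairs over 0.1 were between E14.5 populations, so the rule does not show that the E14.5 samples were unpaired. With the replicate block, 10910, 10326, 11460, and 10329 genes were called in P2 against CD54+CD31-, CD31+ against CD54+CD31-, P2 against CD31+, and E18.5 against E14.5 cells, where 10815, 10150, 11395, and 11014 were called without it. The block gave log2 fold changes of 1.90 for *Tek*, 1.78 for *Tie1*, and 2.02 for *Ptprb* in the first comparison and changed no call of a member. The fewest counts behind a level, 48 for *Tie1*, were in an E14.5 CD54+CD31- library.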
